A study of Mus musculus with 18 samples.

Results

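The transcription factor p53, encoded by Trp53 in the mouse, and 9 genes that p53 is known to switch on were followed in the mRNA libraries of NIH/3T3 cells with and without a working XPO4 gene. The genes were Trp53, Cdkn1a, Mdm2, Ccng1, Bax, Bbc3, Sesn2, Trp53inp1, Zmat3 and Phlda3, chosen by name, and they make up 10 of the 55401 genes in the deposited count files. All 10 passed the filter on low counts, as did 14688 genes in all. XPO4, or exportin 4, carries cargo out of the nucleus. The study compared wild-type (WT) NIH/3T3 cells, which are fibroblasts grown from mouse embryos, with an XPO4 knockout (KO) line of the same cells in which CRISPR-Cas9 made the same edit in both copies of the gene. There were 3 mRNA libraries of each genotype, and 12 circRNA libraries, 2 per genotype of nuclear, cytoplasmic and whole-cell RNA. For the circRNA libraries, the study first removed linear RNA with the enzyme RNase R. The KO is 1 cell line, no treatment was labelled, and nothing in the labels says that the libraries of a genotype came from separate cultures, so p-values measure the spread between these libraries, which may be technical.

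p53 is kept scarce in unstressed cells by MDM2, a ubiquitin ligase that marks it for breakdown and is itself a p53 target, so that the pair forms a feedback loop. When DNA is damaged, kinases free p53 from MDM2, and p53 then binds paired decamers of DNA near its targets and raises genes that halt the cell cycle, repair damage, adjust metabolism or kill the cell. Much of this control acts on the protein, so the level of the Trp53 mRNA is not a measure of p53 activity. MDM2 is in turn inhibited by ARF, and NIH/3T3 cells are known to lack the Ink4a/Arf locus that encodes it. The Cdkn2a gene of that locus had 0 counts in all 6 mRNA libraries.

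Some facts about the libraries bear on every value. The column heading inside each of the 6 mRNA files names the other genotype than the sample title does. The titles were followed here, and if the headings were right every direction given between genotypes would turn. The targeted gene does not settle this, since Xpo4 mRNA was at 3.72, 2.62 and 3.77 FPKM in KO and 3.08, 2.93 and 2.89 FPKM in WT, with a log2 fold change (KO minus WT) of 0.18 ± 0.11 (SE) and an adjusted p of 0.193 in edgeR, or 0.34 and an adjusted p of 0.000252 without KO replicate 2. FPKM is the count of a gene divided by the length of its exons and scaled to the counted reads of the library. The Y-linked genes Kdm5d, Uty, Ddx3y and Eif2s3y, singled out after their values were seen, had 100 to 594 counts in each library titled KO and 0 in each titled WT. Circular Uty RNA had 19 and 24 reads in the whole-cell KO and 10 and 12 in the whole-cell WT circRNA libraries. The mRNA libraries titled KO and WT thus also differed in Y-linked genes. Libraries of mRNA and circRNA with the same genotype in the title may not stem from the same cells, which was not tested. The mRNA libraries held between 16974062 and 22057323 counted reads. KO replicate 2 stood apart from its group, with a chi-square per gene of 10.4 and 12.1 against the other KO libraries and 3.06 to 5.03 in the other pairs within a genotype. All 9 fibroblast markers were expressed, with a summed level of 2772 to 2869 FPKM in KO and 2678 to 2773 FPKM in WT. The extraction text in the labels speaks of blood, but 3 of 8 blood markers (Cd3e, Hbb-bs and Hbb-bt) were at 0 throughout and all 8 summed to 2.99 to 3.91 FPKM in KO and 4.04 to 5.90 FPKM in WT. Epithelial and endothelial markers summed to at most 0.128 FPKM. The part that blood markers had in the results was not tested.

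Of the 10 genes, 6 were lower and 2 were higher in KO at an adjusted p under 0.05 in edgeR, and 2 did not pass. Across all tested genes 48.7% passed in either direction, 23.6% as lower and 25.1% as higher. The FPKM ranges of the genotypes did not overlap for 8 of the 10 genes, against 57.8% of all tested genes. The median log2 fold change of the 10 was -0.18, beside -0.003 over all tested genes. Because much of the transcriptome differed between these lines, the counts of genes that passed are best read beside those shares. Bbc3, Sesn2, Trp53inp1 and Trp53 showed the larger falls, Mdm2 and Bax rose, and Cdkn1a and Ccng1 fell by less. The genotypes compared are cell populations, in which fewer cells expressing a gene and less RNA per cell cannot be told apart.

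**Figure D1:**
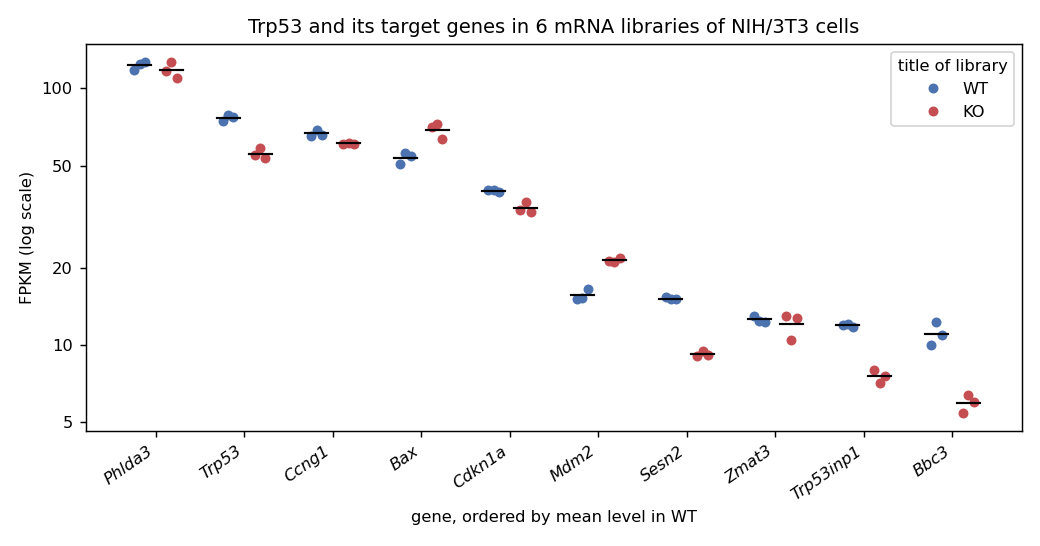
FPKM (log axis) of Trp53 and the 9 target genes in each of the 6 mRNA libraries, with WT in blue, KO in red and the mean of 3 libraries as a black line, ordered by the mean in WT. Phlda3 and Zmat3 are the genes whose WT and KO points overlap, Mdm2 and Bax have KO points above the WT points, and the other 6 genes have KO points below them.

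Trp53 itself (chromosome 11, 69580359 to 69591873, plus strand, mm10) was at 54.8, 58.7 and 53.6 FPKM in KO and 74.9, 78.7 and 77.3 FPKM in WT. The KO libraries lay below all WT libraries, with means of 55.7 ± 2.69 and 77.0 ± 1.92 FPKM (SD, n = 3 each). Trp53 fell by 27.7% in KO, a log2 fold change of -0.47 ± 0.06 (SE; edgeR, adjusted p = 1.64e-05). The processed pseudogene Trp53-ps on chromosome 17 resembles the Trp53 mRNA and took 665 counts over all 6 libraries, against 3679 to 6900 counts per library for Trp53, and reads that fit both copies may have been split or dropped.

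Mdm2 (chromosome 10, 117688875 to 117710758, minus strand), the ubiquitin ligase of the feedback loop, was at 21.2, 21.1 and 21.9 FPKM in KO and 15.1, 15.2 and 16.5 FPKM in WT. All KO libraries lay above all WT libraries. Mdm2 rose 1.37-fold, with a log2 fold change of 0.45 ± 0.06 (SE; edgeR, adjusted p = 2.48e-05), opposite in direction to Trp53. The other tested genes of chromosome 10 had a median log2 fold change of 0.44, with 338 of the 688 above Mdm2 and 350 below it, and the 20 tested genes nearest to Mdm2 had a median of 0.42. Relative to these neighbours, Mdm2 was at 1.02-fold. The part of its chromosome in the rise of Mdm2 was not tested.

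Cdkn1a (chromosome 17, 29090976 to 29100727, plus strand) encodes p21, the inhibitor of cyclin-dependent kinases through which p53 halts the cell cycle. It was at 33.7, 36.0 and 33.0 FPKM in KO and 40.1, 40.2 and 39.4 FPKM in WT. The groups did not overlap, and the fall of 0.22 ± 0.06 on the log2 scale (SE; edgeR, adjusted p = 0.00551) was smaller than that of Trp53. An antisense gene, AC167363.2, overlaps Cdkn1a and had 12 to 94 counts per library, and whether the counting used strand is not given in the sources used here.

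Ccng1 (chromosome 11, 40748552 to 40755311, minus strand) encodes cyclin G1, which recruits a phosphatase to MDM2. It was at 60.6, 61.4 and 61.0 FPKM in KO and 65.4, 68.8 and 66.1 FPKM in WT, without overlap. Its log2 fold change of -0.13 ± 0.05 (SE; edgeR, adjusted p = 0.0481) was the smallest of the 10 to pass. The adjusted p was 0.112 without the filter on low counts, and between 0.0731 and 0.179 without KO replicate 1, KO replicate 3 or any WT replicate.

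Promoter windows of Cdkn1a and Ccng1 are shown because they hold a match to the DNA element that p53 binds. The element was searched as a pair of consensus p53 decamers side by side, 20 bases in all, with at most 1 mismatch and the central C and G of each decamer required, in RefSeq promoter windows from 250 bases before to 50 bases after each start (GRCm38.p6). The consensus is its own reverse complement, so that both strands are covered. Windows were given for 8 of the 10 genes and not for Trp53inp1 and Zmat3. The element was found in 2 of the 11 windows of these genes, in 2 of the 61 windows of a longer list of p53 targets (Gtse1 and Rps27l) and in 22 of all 32851 windows, or 0.067%. Each line gives the strand of the gene 5′ to 3′, with the element in capitals.
Cdkn1a, chr17:29090903-29090972, plus strand: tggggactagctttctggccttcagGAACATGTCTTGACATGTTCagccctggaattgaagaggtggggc
Ccng1, chr11:40755437-40755506, minus strand: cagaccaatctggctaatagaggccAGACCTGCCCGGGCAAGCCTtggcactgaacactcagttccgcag
The element ended 31 bases before a start of Cdkn1a and 175 bases before that of Ccng1, each with 1 mismatch. Cdkn1a had 2 windows, and the element was in only 1 of them, beside the upstream end of the annotated gene. Both genes were lower in KO, and their falls were the smallest among the 6 genes that passed as lower. A match is a description of letters, and its absence from the other windows says nothing of p53 at those genes, many of whose known elements lie in introns or farther upstream.

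The cell death genes moved apart. Bbc3 (chromosome 7, 16308393 to 16318205, plus strand) encodes PUMA, which blocks the survival proteins of the BCL-2 family. It was at 5.42, 6.41 and 5.99 FPKM in KO and 10.0, 12.3 and 10.9 FPKM in WT, and the groups did not overlap. KO was at 0.535 of WT (log2 fold change -0.90 ± 0.11, SE; edgeR, adjusted p = 1.16e-05), the largest fall of the 10. Bax (chromosome 7, 45461697 to 45466898, minus strand), which opens the outer mitochondrial membrane once PUMA and its relatives free it, was at 70.6, 72.5 and 63.5 FPKM in KO and 50.6, 56.0 and 54.5 FPKM in WT. All KO libraries lay above all WT libraries, and Bax rose 1.28-fold (log2 fold change 0.36 ± 0.07, SE; edgeR, adjusted p = 0.00062). Bax was highest in KO replicate 2, and without that library its log2 fold change was 0.32 (edgeR, adjusted p = 3.91e-05). Bbc3 and Bax both lie on chromosome 7, where the median of the other tested genes was -0.02 on the log2 scale. The median of the 20 nearest genes was 0.01 for each.

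Of the metabolic and stress targets, Sesn2 and Trp53inp1 fell. Sesn2 (chromosome 4, 132492032 to 132510501, minus strand) encodes sestrin 2, a leucine sensor that restrains mTORC1. It was at 9.09, 9.44 and 9.12 FPKM in KO and 15.3, 15.1 and 15.1 FPKM in WT. The spread within each genotype was small beside the gap between them, and Sesn2 was at 0.607 of WT (log2 fold change -0.72 ± 0.06, SE; edgeR, adjusted p = 7.23e-07). Trp53inp1 (chromosome 4, 11156431 to 11174379, plus strand), which takes part in p53 phosphorylation and autophagy, was at 8.03, 7.08 and 7.61 FPKM in KO and 11.9, 12.1 and 11.8 FPKM in WT. It too had no overlap and was at 0.634 of WT (log2 fold change -0.66 ± 0.06, SE; edgeR, adjusted p = 1.36e-06). Sesn2 is also a target of the stress factor ATF4, so p53 is not its sole known regulator. The other genes of chromosome 4 had a median log2 fold change of 0.02.

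Zmat3 and Phlda3 did not pass. Zmat3 (chromosome 3, 32334792 to 32366014, minus strand), an RNA-binding zinc finger protein that acts in splicing, was at 13.02, 10.4 and 12.7 FPKM in KO and 13.02, 12.4 and 12.3 FPKM in WT. The groups overlapped, and the log2 fold change was -0.06 ± 0.07 (SE; edgeR, adjusted p = 0.501). KO replicate 2 was the low library, and without it the value turned to 0.03 (adjusted p = 0.639). Phlda3 (chromosome 1, 135766119 to 135769136, plus strand), which keeps the kinase AKT from the membrane, was at 116, 127 and 109.5 FPKM in KO and 118, 125 and 126 FPKM in WT. Its log2 fold change was -0.07 ± 0.07 (SE; edgeR, adjusted p = 0.419), -0.13 with an adjusted p of 0.0467 without KO replicate 2, and -0.007 with an adjusted p of 0.941 without KO replicate 3. KO replicate 2 was low in long genes and high in short ones, with a median deviation of -0.10 on the log2 scale among genes with over 7117.4 bases of exons and 0.09 among those with up to 1900.4, and Zmat3 has 11435 and Phlda3 1559 bases. Bax, which was also highest in KO replicate 2, has 1576 bases. The part of KO replicate 2 in these values was not tested beyond leaving the library out. The other tested genes of chromosome 3 had a median of 0.16 and those of chromosome 1 a median of -0.21, so that Zmat3 lay 0.23 below and Phlda3 0.14 above the median of its chromosome on the log2 scale.

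**Figure D2:**
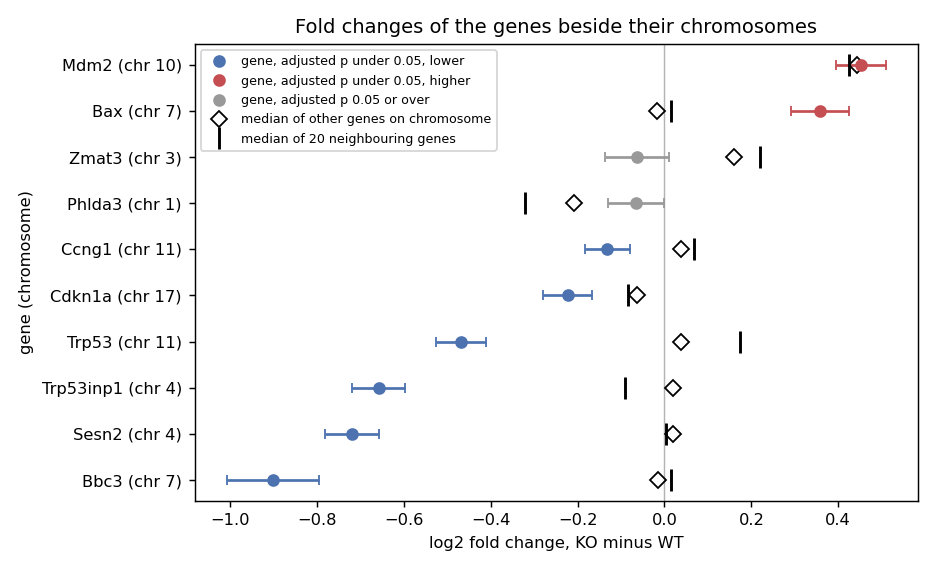
Log2 fold change (KO minus WT) of each gene with its standard error, in blue or red where the adjusted p was under 0.05 and grey where not, beside the median of the other tested genes on its chromosome (diamond) and of the 20 nearest tested genes (vertical bar). Mdm2 at 0.45 lies on the 0.44 of chromosome 10, while Trp53, Bbc3, Sesn2 and Trp53inp1 lie 0.51 to 0.89 below the medians of their chromosomes.

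NIH/3T3 cells are aneuploid, and lines derived from them can differ in gene copies. Beside their chromosomes, Trp53 lay 0.51, Trp53inp1 0.68, Sesn2 0.74 and Bbc3 0.89 below the median on the log2 scale, and Bax lay 0.37 above it. Cdkn1a lay 0.16 and Ccng1 0.17 below. Of the 1135 other tested genes on chromosome 11, 999 had a higher fold change than Trp53, and of the 1122 on chromosome 7, 1036 had a higher one than Bbc3. These are positions among genes and not tests, and gene copies were not measured here.

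Levels were compared between genes per exon length, by FPKM. In WT the order was Phlda3 (123 ± 4.24), Trp53 (77.0 ± 1.92), Ccng1 (66.8 ± 1.81), Bax (53.7 ± 2.78), Cdkn1a (39.9 ± 0.435), Mdm2 (15.6 ± 0.758), Sesn2 (15.2 ± 0.138), Zmat3 (12.6 ± 0.392), Trp53inp1 (11.9 ± 0.165) and Bbc3 (11.1 ± 1.18), as mean ± SD of 3 libraries. In WT the ranges of Mdm2 and Sesn2 overlapped, and that of Bbc3 overlapped those of Trp53inp1 and Zmat3. In KO the order was Phlda3, Bax, Ccng1, Trp53, Cdkn1a, Mdm2, Zmat3, Sesn2, Trp53inp1 and Bbc3, without overlap between neighbours. Bax thus stood below Trp53 and Ccng1 in WT and above both in KO. Over all 6 libraries, Phlda3 was above 97.6% of the tested genes and Bbc3, the least abundant, above 59.5%. The genes most like Trp53 over the 6 libraries by Pearson's r of log2 CPM were Ifnar2 (0.9987), Mcm7 (0.9984) and Asns (0.9984), and 880 of 14687 genes (5.99%) had an r over 0.95. The points of these correlations are 2 groups of 3 libraries that differ in genotype, so they are descriptions without a test.

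**Figure D3:**
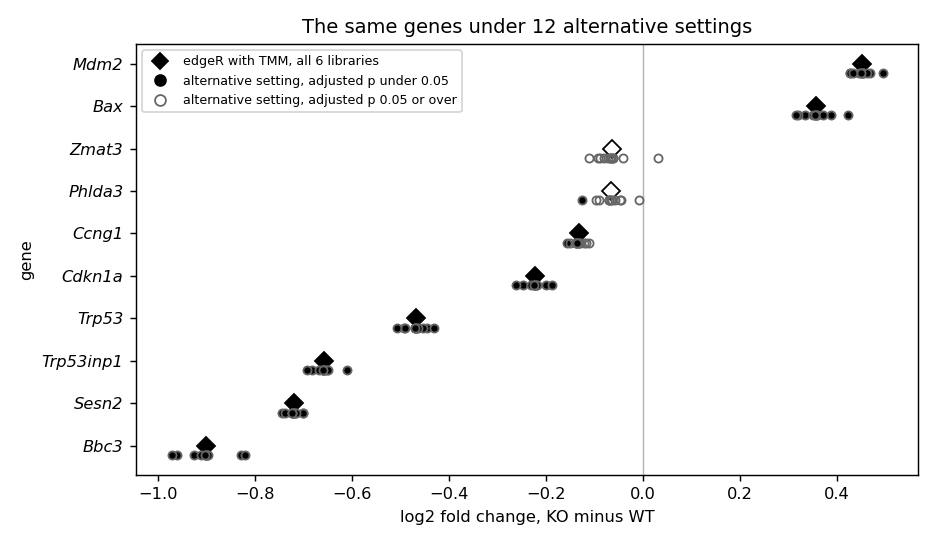
Log2 fold change (KO minus WT) of each gene in edgeR with all 6 libraries (diamond) and under 12 alternative settings (circles), filled where the adjusted p was under 0.05. Trp53, Mdm2, Cdkn1a, Bax, Bbc3, Sesn2 and Trp53inp1 kept their side of 0 and of the threshold in all 12, Ccng1 passed in 5 of 12, and Zmat3 crossed 0 in 1.

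Other genes listed as p53 targets from textbook knowledge, grouped by role, went both ways. Whether p53 raises each of them in the mouse or in these cells was not tested. Of 52 such genes 48 were tested, and 12 were higher, 15 lower and 21 did not pass, with a median log2 fold change of -0.02. The share that passed was 56.2%, beside 48.7% of all tested genes. Among 8 cell cycle genes listed under arrest, 5 fell (Gadd45a, Btg2, Gtse1, Psrc1 and Ckap2) and 1 rose (Plk3). The heading is only the name of the list. Not all of these genes are known to halt the cell cycle, and whether each does was not tested. Among 11 tested genes of cell death, 5 fell and 3 rose, and Pmaip1, among those that rose, had only 3 to 14 counts per library. Among 10 tested genes of metabolism and redox control, 4 fell and 3 rose, and among 13 of signalling and other functions, 1 fell and 5 rose. Of the 6 genes of DNA repair (Ddb2, Xpc, Polk, Polh, Rrm2b and Ercc5), 0 passed in edgeR (2 had an unadjusted p under 0.05) and 0 in DESeq2, with edgeR log2 fold changes between -0.14 and 0.25.

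**Figure D4:**
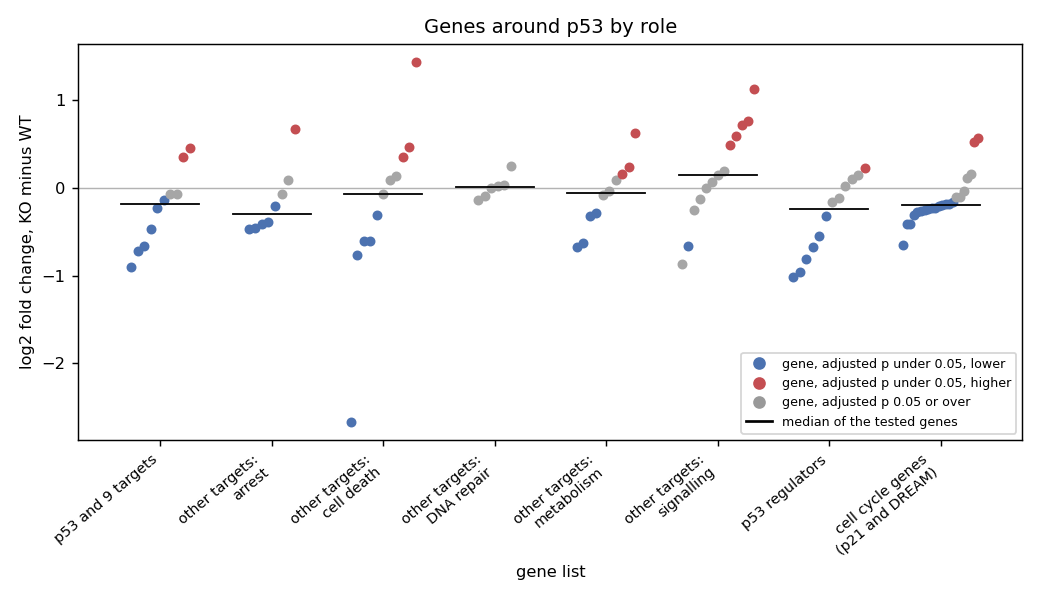
Log2 fold change (KO minus WT) of every tested gene of each list, in red where higher and blue where lower at an adjusted p under 0.05 and grey where not, with the median of the list as a black line. Each list of targets holds genes on both sides of 0, and Fas at -2.67 lies farthest from it.

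Fas, the death receptor, was the widest change of these lists, at 4.22, 4.38 and 3.97 FPKM in KO and 26.2, 27.0 and 26.9 FPKM in WT. KO was at 0.157 of WT (log2 fold change -2.67 ± 0.08, SE; edgeR, adjusted p = 2.2e-11). Dram1, a lysosomal protein of p53-driven autophagy, also fell, from 10.9 ± 0.603 FPKM in WT to 6.41 ± 0.608 FPKM in KO (SD, n = 3 each; log2 fold change -0.76 ± 0.09, SE; edgeR, adjusted p = 9.56e-06). In the other direction, Ikbip, a protein of the endoplasmic reticulum, rose from 12.2 ± 0.113 to 26.6 ± 1.53 FPKM (SD, n = 3 each; log2 fold change 1.13 ± 0.06, SE; edgeR, adjusted p = 7.06e-09). Epha2, an ephrin receptor kinase, rose from 8.44 ± 0.284 to 14.4 ± 0.166 FPKM (SD, n = 3 each; log2 fold change 0.77 ± 0.06, SE; edgeR, adjusted p = 2.67e-07). Rps27l, a ribosomal protein paralog whose promoter window holds the element, was at 130.4 ± 15.6 FPKM in KO and 125 ± 7.13 FPKM in WT and did not pass (SD, n = 3 each; edgeR, adjusted p = 0.546). Sesn1, the paralog of Sesn2, rose with a log2 fold change of 0.62 ± 0.08 (SE; edgeR, adjusted p = 1.85e-05), where Sesn2 fell, but it lies on chromosome 10, whose other tested genes had a median of 0.44, while Sesn2 lies on chromosome 4 with a median of 0.02. Of the 12 genes of this list that rose, 5 are on chromosome 10 (Apaf1, Sesn1, Ddit4, Ikbip and Zfp365), and of the 8 tested there 1 fell, Dram1. Ikbip lay 0.69, Sesn1 0.18 and, on chromosome 4, Epha2 0.75 above the median of its chromosome, and the part of the chromosome in these values was not tested.

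Of the genes that act on p53, 14 were listed and 12 tested, and 6 fell, 1 rose and 5 did not pass, with a median log2 fold change of -0.24. The share that passed was 58.3%, beside 48.7% of all tested genes. Rchy1, a ubiquitin ligase for p53, was the one that rose (log2 fold change 0.23 ± 0.07, SE; edgeR, adjusted p = 0.0168), and its call was lost without WT replicate 1 (adjusted p = 0.0542) or WT replicate 2 (adjusted p = 0.0869). Mdm4, the partner of MDM2 that masks the activation domain of p53, was at 9.35, 7.19 and 9.35 FPKM in KO and 15.1, 13.2 and 13.03 FPKM in WT, so that it fell where Mdm2 rose (log2 fold change -0.68 ± 0.09, SE; edgeR, adjusted p = 3.96e-05). It lies on chromosome 1, whose other tested genes had a median of -0.21. The kinase Atm, which phosphorylates p53 after DNA breaks, was at 2.83, 1.77 and 3.02 FPKM in KO and 4.90, 4.61 and 3.81 FPKM in WT (log2 fold change -0.81 ± 0.15, SE; edgeR, adjusted p = 0.000547). The kinase Hipk2 was at 3.28, 1.31 and 4.35 FPKM in KO and 7.18, 5.66 and 5.14 FPKM in WT (log2 fold change -1.02 ± 0.27, SE; edgeR, adjusted p = 0.00653), and did not pass in DESeq2 (adjusted p = 0.0822). Without KO replicate 2 the value of Hipk2 was -0.65 (adjusted p = 3.7e-06), and without KO replicate 3 it was -1.38 (adjusted p = 0.000705). The p53 relative Trp63 was barely expressed, at 0.202 ± 0.0669 FPKM in KO and 0.394 ± 0.0832 FPKM in WT (SD, n = 3 each; log2 fold change -0.96 ± 0.27, SE; edgeR, adjusted p = 0.00997, and 0.0553 without WT replicate 2). The deubiquitinase Usp7, which stabilises MDM2 and p53, was at 25.8 ± 1.10 FPKM in KO and 25.4 ± 0.586 FPKM in WT (edgeR, adjusted p = 0.772). All 6 regulators that fell (Mdm4, Trp63, Trp53bp1, Atm, Hipk2 and Ep300) have over 7117.4 bases of exons and had their lowest level in KO replicate 2, the library that was low in long genes. Over all tested genes of that length the median log2 fold change was -0.08, and -0.03 without KO replicate 2. The same number, 6 regulators, were lower without that library, and the part of gene length in these values was otherwise not tested.

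Cell cycle genes that p53 lowers through p21 and the DREAM repressor complex formed the last list. All 22 were tested, and 15 fell, 2 rose and 5 did not pass, with a median log2 fold change of -0.20. The share that fell was 68.2%, beside 23.6% of all tested genes. Without KO replicate 1, WT replicate 2 or WT replicate 3, 11 of the 22 were lower. In these fits 2991, 2917 and 2974 of all tested genes were lower, against 3467 with all libraries. Without KO replicate 2, without KO replicate 3 or in DESeq2, 13 of the 22 were lower. Cenpf, a kinetochore protein, went from 12.8 ± 0.490 FPKM in WT to 8.14 ± 1.00 FPKM in KO (SD, n = 3 each; log2 fold change -0.65 ± 0.08, SE; edgeR, adjusted p = 1.2e-05). Mcm5, part of the replicative helicase, went from 51.5 ± 0.854 to 38.7 ± 1.16 FPKM (SD, n = 3 each; log2 fold change -0.42 ± 0.05, SE; edgeR, adjusted p = 2.67e-05). The mitotic kinase gene Cdk1 and the transcription factor gene E2f1 were the ones that rose, with log2 fold changes of 0.57 ± 0.06 and 0.52 ± 0.06 (SE; edgeR, adjusted p = 2.36e-06 and 1.12e-05). Cdk1 lies on chromosome 10 and was 0.12 above its median, and E2f1 lies on chromosome 2 and was 0.50 above its median, on the log2 scale. Cenpf lies on chromosome 1 and was 0.44 below its median, and Mcm5 lies on chromosome 8 and was 0.45 below its median. Cenpf has 15433 bases of exons and was lowest in KO replicate 2. Without that library its log2 fold change was -0.55 (edgeR, adjusted p = 2.55e-10). Ccna2, encoding cyclin A2, did not pass (0.12 ± 0.06, SE; edgeR, adjusted p = 0.0905). Cdkn1a, whose product p21 acts to lower such genes through this complex, was itself lower in KO, as were 15 of the 22. Any link between these falls was not tested.

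In the circRNA libraries, 3 of the 10 genes gave circles, Mdm2, Zmat3 and Trp53inp1, with 7 circRNAs and 172 backsplice reads among 16171 circRNAs listed. A circRNA is a loop made when the end of an exon is spliced back to the start of the same or an earlier exon. The most read was a circle of exons 9 to 10 of the 12 exons of Mdm2 (chr10:117692582-117695068, minus strand, GRCm38), 320 bases long when spliced. The junctions of it and of the larger Zmat3 circle are shown because they are the ones with cytoplasmic reads, with the 15 bases that end the circle in lower case and the 15 bases that begin it in capitals, on the strand of the gene.
circMdm2, exons 9 to 10: gatgaggatgatgagAAGAGAACACAGATG
circZmat3, exons 2 to 5: tccagagcaattcagGTTTGAAGACTCCAT
In the cytoplasm this Mdm2 circle had 19 and 19 reads in the KO libraries and 8 and 5 in the WT libraries, and in whole-cell RNA 8 and 7 reads in KO and 20 and 17 in WT. KO was thus the higher genotype in one fraction and the lower in the other. It was listed in no nuclear library, but these held only 2189 to 4383 junction reads, too few to show a circle of this abundance reliably. In total, 50629 and 63335 junction reads were counted in the cytoplasm of KO, 77818 and 81941 in that of WT, and 50341 to 58165 in the whole-cell libraries, so that the higher cytoplasmic counts in KO came from the smaller libraries. The Zmat3 circle of exons 2 to 5 (chr3:32343334-32361216, minus strand) had 6 and 6 reads in the cytoplasm of KO and 1 and 0 in that of WT. It was listed in no whole-cell library. A smaller Zmat3 circle of exons 3 to 5 had 2 and 4 whole-cell reads in KO and 3 and 4 in WT, and the Trp53inp1 circle of exons 2 to 3 had 3 and 5 in KO and 0 and 1 in WT. With 2 libraries a group and few reads, no test was made. A count of 0 stands for a circle not listed for that library, and whether the lists were filtered is not given in the sources used here. Without a filter, a count of 0 reads allows up to 3 by counting error alone.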

How the data were processed

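NIH/3T3 mRNA (3 KO, 3 WT libraries) and circRNA (12 libraries) were measured by RNA-seq. Per the labels and file headers, the authors aligned mRNA reads to mm10 with HISAT2 and deposited raw counts per gene from featureCounts (version 2.0.0). CircRNA counts were deposited as backsplice junction reads from find_circ. The mRNA counting settings for strand and shared reads are not given in the sources used here. Groups came from the sample titles. FPKM was computed from the counts, exon lengths and total counts. KO and WT were compared with edgeR's quasi-likelihood test (version 4.0.16, R 4.3.3; TMM, filterByExpr, Benjamini-Hochberg over 14688 genes, threshold 0.05), and SE was the log2 fold change divided by the root of F. On simulated counts of 14427 genes with the KO and WT library sizes, 58.8% of 97 genes changed 1.3-fold and 81.7% of 93 changed 2-fold were recovered. Of the unchanged genes, 10 were called. Far fewer genes were changed there than the 48.7% that passed in the real libraries, so these rates need not hold for them. Other scalings, no filter, DESeq2 (version 1.42.0), a replicate block and each library left out were the alternatives. Chromosome medians used all other tested genes of the chromosome, and neighbours were the 10 tested genes on each side. Promoter windows came from RefSeq and junction sequences from the GRCm38 genome. The named genes were the 10 genes, Xpo4 and Cdkn2a and, from each other list, the 4 with the largest change among those that passed with a mean of at least 50 counts in the higher genotype, and the most abundant that did not pass. Rchy1, Sesn1, Apaf1, Ddit4, Zfp365, Trp53bp1, Ep300 and the DNA repair genes were named after their values were seen. The same holds for Pmaip1 and for the genes named from those listed under arrest. The genes and lists were chosen with earlier results of these data known. Reads carry no molecular identifiers in the sources used here, and bounds from read counts hold for counting error only. Python 3.11.15 (pandas 2.3.3, numpy 2.4.6) was used.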

Additional observations from a re-analysis of the deposited data

How the results depend on the processing

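Across the 12 alternatives, and with TPM or TMM-scaled FPKM for the order of levels, 121 counts of calls or of changed ranks stayed within 1.5 times of their value and 3 did not. The p53 regulators higher in KO, 1 with all libraries (Rchy1), numbered between 0 and 2 with a library left out (2 without KO replicate 3, 0 without WT replicate 1 or WT replicate 2). With each library left out in turn, Zmat3 lay between -0.112 and 0.032 and Rps27l between -0.039 and 0.136 on the log2 scale, and both turned without KO replicate 2, and Usp7 turned to -0.005 with upper-quartile scaling, none of them past the threshold. Same-numbered libraries did not deviate together (r of 0.06, 0.04 and -0.09), so the numbers were not taken to pair libraries. With the replicate number as a block, 3660 genes were higher and 3464 lower, and of the 10 genes only Ccng1 lost its call (adjusted p = 0.0631). DESeq2 called 3450 genes higher and 3212 lower, against 3684 and 3467 in edgeR. The cause of these changes was not tested. Of single genes, 298 values kept direction and side of the threshold, 9 lost their call, 2 gained one and 3 turned.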
